A study of Homo sapiens with 12 samples.

Results

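The regions described here are stretches of chromatin that had an ATAC-seq peak in every SMARCB1-expressing library and in none of the control libraries, that lay close together in groups, and that sat away from the regions open in all libraries. ATAC-seq uses a transposase to insert adapters into accessible DNA, so a peak marks a stretch where nucleosomes are sparse. Overlapping peaks of the 12 lists (1 bp or more) were joined, which gave 187088 regions. Of these, 13634 had a peak in 6 of 6 SMARCB1 and 0 of 6 GFP lists and are called gained. Gained regions whose edges lay at most 12.5 kb apart were joined into chains. The members are the gained regions of chains of 3 or more that were over 12.5 and up to 100 kb from the nearest region found in all 12 lists. There were 519 members in 188 chains, 3.81% of the gained regions and 0.277% of all regions.

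All libraries came from G401, an established rhabdoid tumour line whose genotype is given as SMARCB1(-/-), and all received doxycycline for 24 h. Doxycycline induced GFP in the control cells and SMARCB1 in the others, and cells of either kind received DMSO or dBRD9-A, a compound that degrades the protein BRD9. This made 4 groups of 3 libraries: GFP with DMSO, GFP with dBRD9-A, SMARCB1 with DMSO and SMARCB1 with dBRD9-A. The sources used here do not give the dose of dBRD9-A, the number of clones or whether replicates were separate cultures, so the spread between libraries may be technical. No protein level, gene expression or gene annotation in the build of the lists was used here, so neither the induction, the loss of BRD9 nor the identity of the line was checked.

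SMARCB1 is a core subunit of the canonical SWI/SNF complexes, which move nucleosomes and help to keep distal enhancers accessible. BRD9 belongs to a different, non-canonical form of SWI/SNF that lacks SMARCB1 and that rhabdoid tumour cells depend on. Distal accessible regions that lie within a short distance of each other are often studied as one unit, since groups of neighbouring enhancers can act on the same gene. The chain distance of 12.5 kb is a common choice for joining neighbouring enhancers.

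The depth of the libraries bears on every value below. Read totals were not analysed here, and the background pileup, the mean cover by fragments that the peak caller took as background, served in their place. It ranged from 0.0383 to 0.0784 in the GFP libraries and from 0.0487 to 0.111 in the SMARCB1 libraries, and lists held 33428 to 50089 peaks with GFP and 71169 to 96572 with SMARCB1. Of the SMARCB1 libraries, dBRD9-A replicate 2 had the lowest background pileup and the fewest peaks. Every list held peaks with a summit of 2 fragments, so absence from a list means less signal than the peak caller required and not closed chromatin. A weaker peak may come from fewer accessible cells or from less accessibility per cell, and these cannot be told apart in bulk libraries.

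The members were chosen by the presence of peaks in SMARCB1 lists and their absence in GFP lists, together with position, so the gain itself is a description. The same pattern held for 15.4% of the 88398 regions found in 2 to 10 lists. Most gained regions stood alone: 9966 of the 13634 had no gained neighbour within 12.5 kb, and a further 2686 were in pairs. The other 982 formed 293 chains of 3 or more. From these chains the distance rule removed 153 regions at or within 12.5 kb of a region found in all 12 lists and 310 regions more than 100 kb away. The member nearest to the lower limit, at chromosome 15, positions 42090908 to 42091101, was 12579 bp away, and the gained region just past it was 12404 bp away. The member nearest to the upper limit was 99440 bp away, and the gained region just past it 100070 bp. The widest gap inside a chain was 12467 bp, and the narrowest gap that broke one was 12508 bp. Coordinates are 1-based in hg19, the build given in the submitters' processing notes.

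Of the 12 single libraries, SMARCB1 dBRD9-A replicate 2 moved the number of members most when left out. Without it, the rule applied to the remaining libraries gave 826 members in 299 chains, among them 511 of the 519. Without any other single library it gave 537 to 645 members in 193 to 232 chains. A region then has to meet the rule in fewer lists, which is easier. Higher numbers and the recovery of most members were thus largely built in, and they are no check of the rule. With summit pileups thinned to the lowest background pileup of the 12 libraries and 1 threshold on p for all lists, 130 members in 46 chains were found, and 115 of the 519 overlapped one of them.

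The most frequent chain was a row of 3 short accessible regions. The span from the first to the last gained region had a median of 16643 bp, with quartiles of 13009 and 20954 bp. Neighbouring gained regions were separated by a median of 7057 bp, with a quartiles of 4367 and 9686 bp over 441 gaps. Members had a median width of 284 bp and covered a median of 4.99% of their chain. Of the 188 chains, 94 held 3 members, 28 held 4, 5 held 5 and 1 held 6. Another 34 held 2 members and 26 held 1, because the other gained regions of those chains fell outside the distance limits. In 117 chains every gained region was a member.

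**Figure D1:**
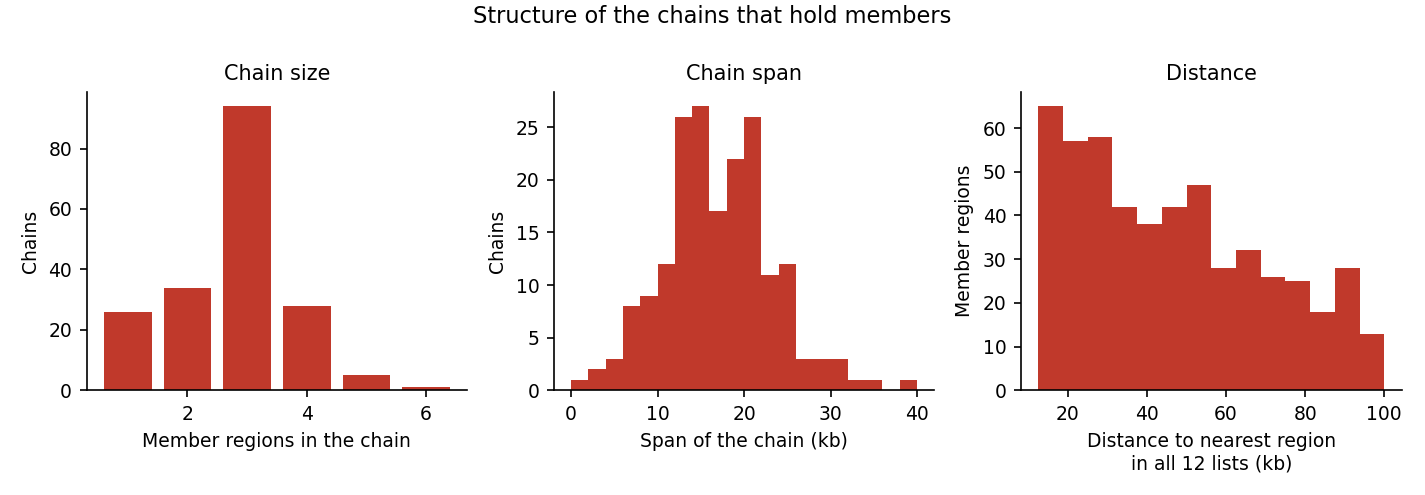
Histograms of the 188 chains that hold members: the number of member regions per chain, the span of the chain in kb, and the distance in kb from each of the 519 members to the nearest region found in all 12 lists. Chains of 3 members are the most frequent, at 94, and the distances have a median of 43059 bp.

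Members were found on 22 chromosomes and were spread unevenly. Chromosome 8 held 55 members in 20 chains, 10.6% of the members against 6.23% of all gained regions. Chromosome 10 held 49 members in 16 chains, 9.44% against 5.45%, and chromosome 20 held 26 members in 8 chains, 5.01% against 2.46%. Chromosome 3 went the other way, with 4.82% of the members and 7.61% of the gained regions, and so did chromosome 4, with 2.12% and 4.66%. Chromosome 19 held 1 member among its 251 gained regions, and chromosome X held 0 members among 165. These shares were not tested. Within the distance limits, the share of gained regions that were members was 6.23% at 12.5 to 25 kb from a region found in all 12 lists, 7.25% at 25 to 50 kb and 8.54% at 50 to 100 kb.

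The chain with the most members lay on chromosome 10, positions 105251796 to 105287538, and held 6 over 35743 bp. The longest span of any chain was 38093 bp, in a chain with 2 members. The members of the chain of 6 were not equally strong. The fold enrichment is the summit pileup over the local background as the authors' peak caller gave it. At the first member, positions 105251796 to 105252262, it was 16.5, 13.6 and 11.9 in SMARCB1 DMSO replicates 1, 2 and 3 and 16.5, 10.2 and 14.5 in SMARCB1 dBRD9-A replicates 1, 2 and 3. The values of both treatments overlapped. At the third member, positions 105267642 to 105267831, it was 5.32, 6.30 and 4.96 with DMSO and 5.24, 6.85 and 5.83 with dBRD9-A, lower than at the first member in all 6 libraries. Of the 6 members, the last, at positions 105287257 to 105287538, varied most between libraries, with 13.9, 6.46 and 17.4 with DMSO and 12.2, 5.71 and 21.5 with dBRD9-A. Both replicate 2 libraries were the lowest there and both replicate 3 libraries the highest.

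This chain also held a region with weak peaks in GFP control libraries. At positions 105262776 to 105263209, between the first and the second member, 4 of the 6 GFP lists had a peak, with folds of 2.80 to 4.45. All 6 SMARCB1 lists had a peak there, with folds of 10.9 to 17.9, above every GFP value. These folds are not scaled between lists of unlike depth. It lies outside the members because the rule requires 0 GFP peaks.

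The chain on chromosome 20, positions 36732792 to 36763359, had 5 members and the highest mean fold percentile of the chains of 5 that are described here, 79.3. A fold percentile is the rank of a peak's fold within its own list, from 0 to 100. Its strongest member, positions 36738223 to 36738793, had folds of 12.2, 17.1 and 14.0 with DMSO and 17.5, 13.2 and 14.7 with dBRD9-A. Its weakest member, positions 36755023 to 36755257, had 10.4, 7.20 and 8.58 with DMSO and 10.9, 6.02 and 4.70 with dBRD9-A. Of the 7 other regions in this span, 5 had a GFP peak. The region at positions 36741963 to 36742112 was found in 6 of 6 GFP lists, with folds of 6.16 to 14.0, and in 3 of 6 SMARCB1 lists, with folds of 7.004 to 7.99.

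The chain on chromosome 11, positions 126017538 to 126035464, placed 5 members within 17927 bp and had no GFP peak anywhere in its span. Its first member, positions 126017538 to 126018015, had folds of 15.02, 14.3 and 13.1 with DMSO and 21.1, 10.2 and 15.4 with dBRD9-A. The member at positions 126027879 to 126028202 was the most even, with 14.8, 14.0 and 14.3 with DMSO and 13.3, 13.3 and 14.8 with dBRD9-A. The chain on chromosome 10, positions 123255308 to 123287470, also had 5 members and no GFP peak in its span, and the folds of its members ranged from 5.22 to 16.5. The chain on chromosome 5, positions 150012193 to 150024948, was the most compact of the 5 described, with 5 members in 12756 bp and folds of 4.76 to 15.2. Its span held 2 other regions with a GFP peak. That at positions 150019787 to 150020029 was found in 5 GFP lists, with folds of 6.33 to 9.98, and in 2 SMARCB1 lists, with folds of 5.23 and 5.72. That at positions 150020753 to 150021088 was found in 1 GFP list and 6 SMARCB1 lists.

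**Figure D2:**
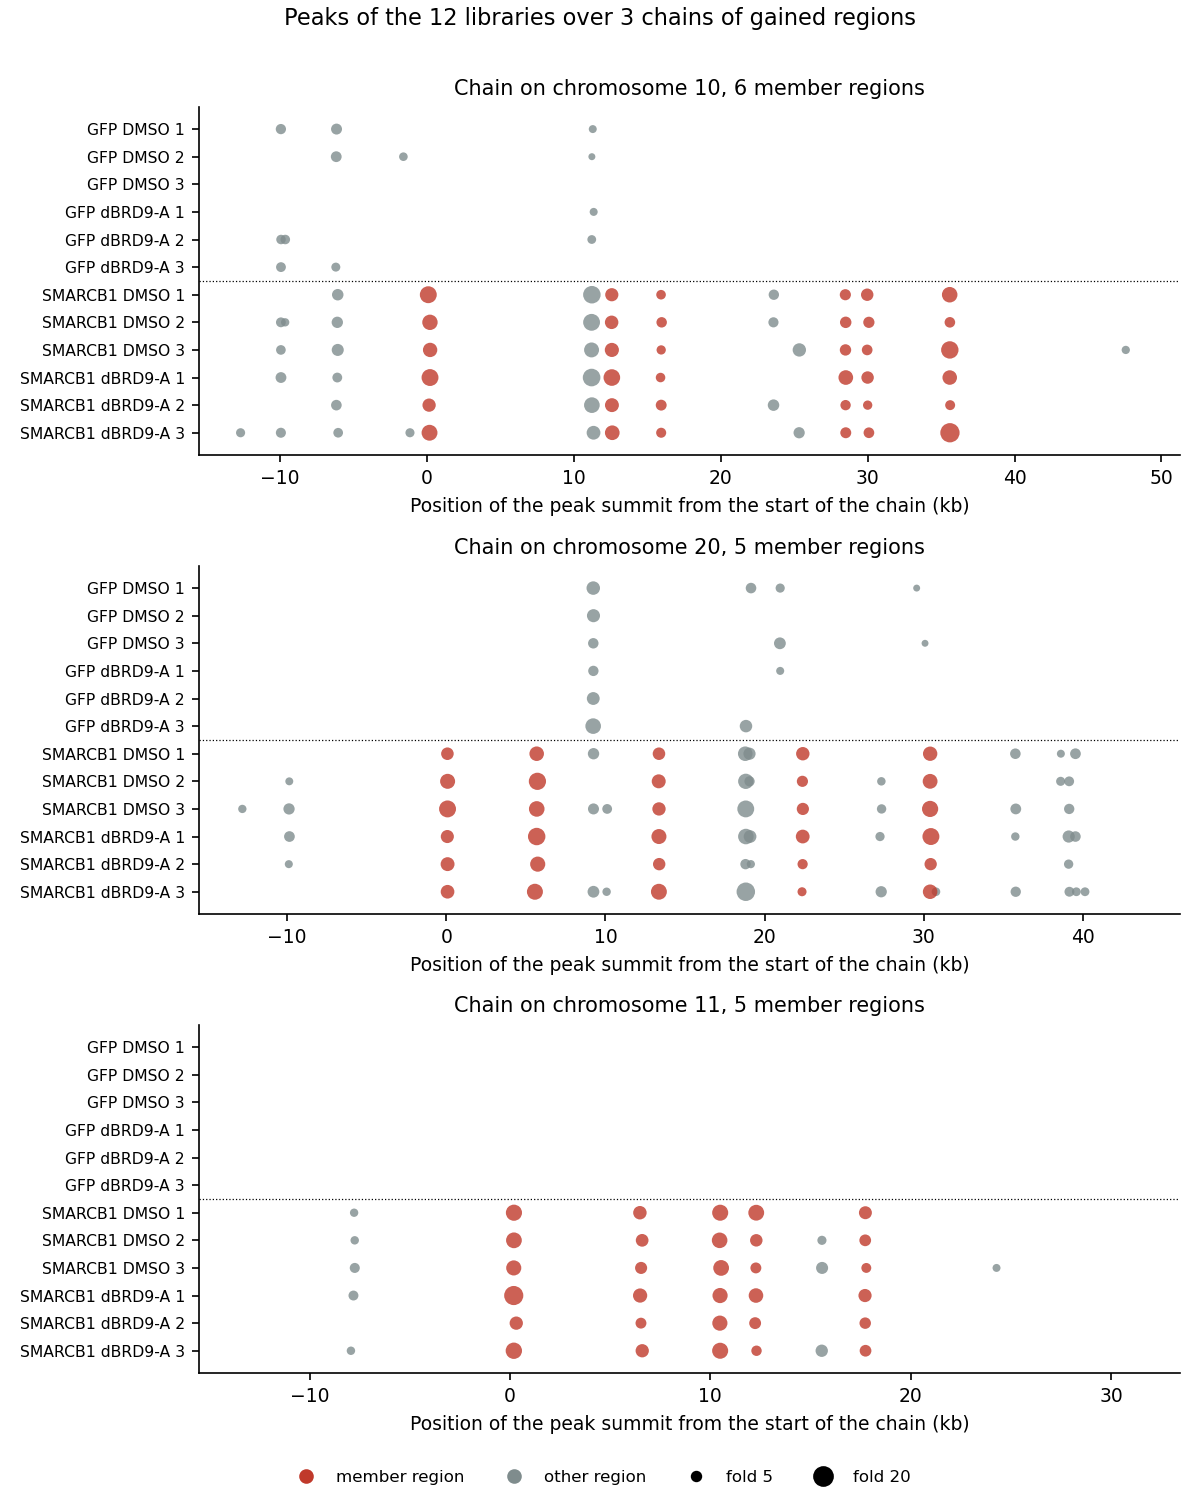
Peak summits of the 12 libraries over 3 chains, with the position in kb from the start of the chain on the x axis, one row per library, and the area of a point proportional to the fold enrichment; red points are members and grey points other regions. Members line up in the 6 SMARCB1 rows and are absent from the 6 GFP rows by the rule, while the chain on chromosome 20 has GFP peaks between its members and the chain on chromosome 11 has none in its span.

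The 5 strongest members by mean fold percentile had means from 95.4 to 98.8. The strongest, at chromosome 2, positions 47452573 to 47452895, had folds of 25.1, 21.0 and 25.5 with DMSO and 25.01, 19.3 and 23.6 with dBRD9-A, from summits of 27 to 48 fragments. The next, at chromosome 20, positions 34416385 to 34416662, had 22.3, 21.2 and 20.04 with DMSO and 25.3, 17.7 and 21.0 with dBRD9-A. The third lay at chromosome 7, positions 131213880 to 131214272, with folds of 14.8 to 25.9. The others were at chromosome 1, positions 68166385 to 68166805, with folds of 14.9 to 24.9, and at chromosome 3, positions 50669963 to 50670238, with folds of 15.7 to 19.9. The last 3 of these lay close to the lower distance limit, 15315 to 15473 bp from a region found in all 12 lists. In 4 of the 5, SMARCB1 dBRD9-A replicate 2 had the lowest fold.

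Across the 519 members, strength ranged widely. The mean fold over the 6 SMARCB1 libraries had a median of 8.68 and ran from 4.39 to 23.2, and the mean percentile ran from 24.9 to 98.8. The median summit pileup per library was between 7 and 14 fragments. In its weakest library a member had a median of 7 fragments, and for 92 members that value was 3 fragments or fewer. Members with a −log10 q of at least 5 in all 6 libraries numbered 297, or 57.2%, beside 49.5% of the gained regions at the same distances that were not in chains of 3 or more. For 294 members the lowest pileup was in SMARCB1 dBRD9-A replicate 2, the shallowest of the 6 libraries.

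Member peaks had higher medians of strength than gained regions at the same distances that were not in chains of 3 or more. There were 6462 of these unchained regions. The median percentile of the members was 69.5 ± 3.98 and that of the unchained regions 64.9 ± 5.07 (SD, n = 6 SMARCB1 libraries). Within a library the difference was 2.83 to 6.52 percentile points, with members higher in 6 of 6. The median summit pileup differed by 1 to 4 fragments and the median peak width by 7 to 17 bp, both with members higher in 6 of 6 libraries. These are differences between medians of overlapping distributions, and they were not tested. Both classes stood below the regions found in all 12 lists, whose median percentile was 84.8 ± 1.35 (SD, n = 6). Those regions also had a peak in the 6 GFP lists by definition.

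**Figure D3:**
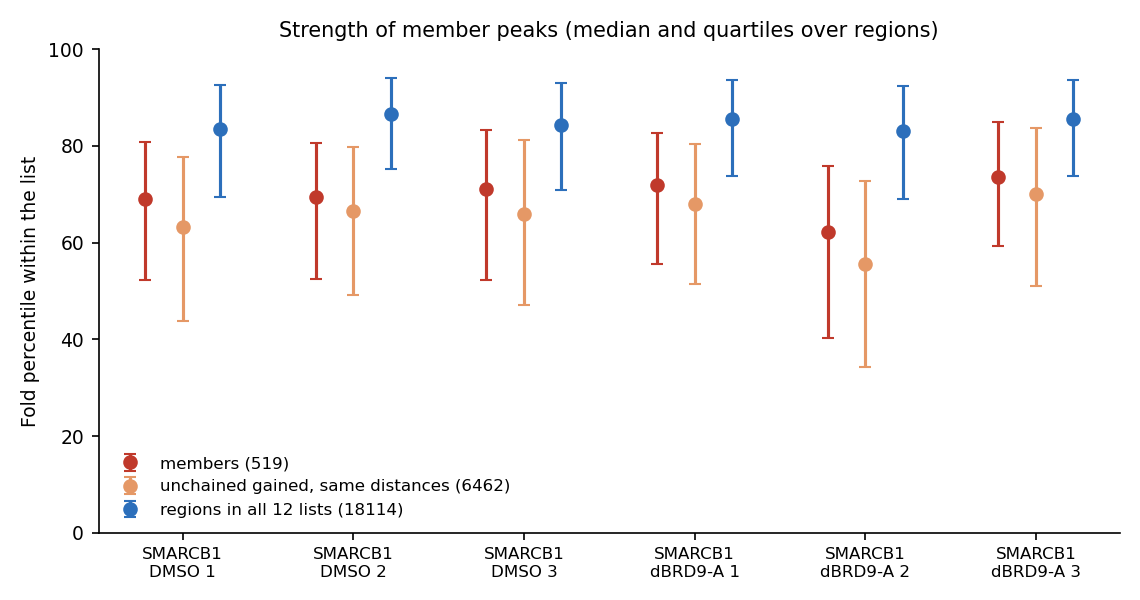
Fold percentile within the list, as the median with quartile bars over regions, in each of the 6 SMARCB1 libraries for members, unchained gained regions at the same distances and regions found in all 12 lists. Members lie 2.83 to 6.52 points above the unchained regions in each library, with wide overlap of the quartile bars, and all 3 classes are shown on an axis from 0 to 100.

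Strength showed no order by the size of the chain. The median of the mean percentile was 67.5 for the 340 members in chains of 3 gained regions, 65.5 for the 127 in chains of 4, 69.6 for the 42 in chains of 5 and 67.9 for the 10 in chains of 6. By distance it was 66.8, 67.4 and 67.6 for members 12.5 to 25, 25 to 50 and 50 to 100 kb from a region found in all 12 lists. Neighbouring members of a chain were hardly correlated in strength: the correlation of their log2 mean fold was 0.033 over 331 pairs. It was 0.011 over 6438 pairs of consecutive unchained regions, taken along a chromosome at any distance and so not matched in spacing. Pairs of a chain share libraries and local background, so these values are given as descriptions.

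Within a chain the strongest member had a median of 1.80 times the fold of the weakest, over the 128 chains with 3 or more members, and the ratio reached 4.02. In 33 of these chains the same member was the strongest in all 6 SMARCB1 libraries, in 30 chains in 5 libraries, and in 38 chains in 4. In the remaining 27 no member led in more than 3 libraries. The ratio had a median of 2.239 in the chains with 1 leading member in all 6 libraries and of 1.64 in the others. The order within most chains thus differed between libraries. The range of the summit position over the 6 libraries had a median of 69 bp among members, and in 189 members it was at most 50 bp. That was 36.4% of the members, beside 35.1% of the unchained regions.

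Members and unchained regions had similar median distances to signal in the control cells. The nearest peak of any of the 6 GFP lists was a median of 12814 bp away, and 265 members, or 51.1%, had none within 12.5 kb. For the unchained regions these values were 12948 bp and 51.6%. GFP peaks within 1000 bp were found for 40 members, or 7.71%, and for 6.19% of the unchained regions. The regions found in all 12 lists that lay nearest to members numbered 201. Their fold, centred on the median of all such regions in each library, differed between SMARCB1 and GFP libraries by a median of 0.003 on the log2 scale, and 50.7% of them were higher with SMARCB1. Over all 18114 regions found in all 12 lists the median was −0.042 and 43.0% were higher. These values describe the contrast that chose the members and carry no test.

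The spans of the 188 chains held 330 further regions that were not gained. Of these, 227 had no GFP peak, 26 of them with a peak in 5 of 6 SMARCB1 lists, so that they missed the rule by 1 library. A region that a single SMARCB1 library missed is thus counted here and not among the members. The part of depth in this was not tested. The other 103 had a peak in at least 1 GFP list, 57 of these in a single GFP list and 13 in all 6. The spans of 7 chains held a region found in all 12 lists, since the distance limits apply to each gained region and not to the chain. In 6 of 6 SMARCB1 and 1 to 5 GFP lists there were 19 regions, in 17 chains. Their median fold had a median of 10.4 in SMARCB1 libraries and 4.79 in the GFP libraries with a peak. These folds were not centred for depth, and choosing regions with fewer GFP than SMARCB1 peaks favours higher values with SMARCB1. There were 45 regions with peaks in GFP lists and in no SMARCB1 list, and 0 of them were in all 6 GFP lists. In 131 chains the whole span was free of GFP peaks.

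The rule treats DMSO and dBRD9-A libraries alike, so the treatment contrast did not choose members, and it was examined first in these further regions. SMARCB1 DMSO libraries had a peak in 38.7% ± 4.14 of the 330 regions and SMARCB1 dBRD9-A libraries in 38.4% ± 12.7 (SD, n = 3 each). The single values were 33.9%, 40.6% and 41.5% with DMSO and 42.1%, 24.2% and 48.8% with dBRD9-A, so the dBRD9-A libraries held both the lowest and the highest value. The difference, dBRD9-A minus DMSO, was −0.303 percentage points (two-sided exact permutation p 1 over 20 arrangements, where 0.1 is the smallest possible). Its direction depended on single libraries: it was 6.77 points without dBRD9-A replicate 2, 0.657 without DMSO replicate 2 and 1.11 without DMSO replicate 3. Over all regions that were not gained and had a SMARCB1 peak the difference was 0.702 points (exact permutation p 0.9). In GFP cells the share was 12.1% ± 3.16 with DMSO and 13.0% ± 3.49 with dBRD9-A (SD, n = 3 each; exact permutation p 0.8). Of the 6 SMARCB1 libraries, that with the lowest background pileup, 0.0487, had the lowest share, and that with the highest, 0.111, the highest share. DMSO replicates 1 and 2 broke this order, with 33.9% at 0.0769 and 40.6% at 0.0720. GFP dBRD9-A replicate 3, at 0.0784, had 16.7%, below every SMARCB1 library. The part of sequencing depth in these shares was not tested.

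**Figure D4:**
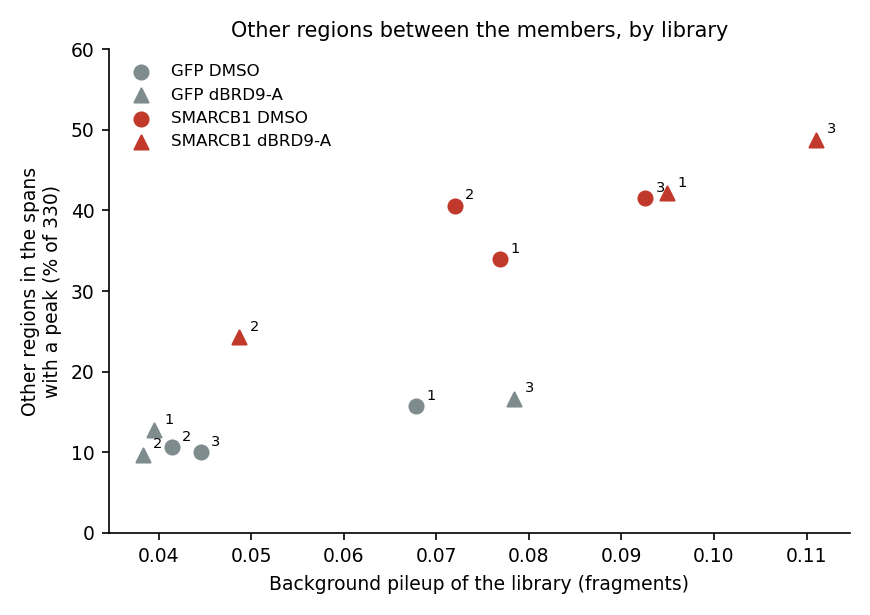
Share of the 330 other regions inside the chain spans that had a peak, in percent, against the background pileup of the library in fragments, with 1 point per library, colours for the induction, shapes for the treatment and replicate numbers beside the points. SMARCB1 libraries lie between 24.2% and 48.8% and GFP libraries between 9.70% and 16.7%, and the lowest SMARCB1 point is dBRD9-A replicate 2.

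No difference in the strength of members between dBRD9-A and DMSO was detected. The log2 fold of each library was centred on its median over the regions found in all 12 lists, and dBRD9-A was compared with DMSO by limma over the 39492 regions with a peak in all 6 SMARCB1 libraries, with Benjamini-Hochberg adjustment over all of them. GFP libraries did not enter, since members have no GFP peak, and a member lost in a library would not have met the rule, so the contrast covers strength and not loss. The median difference, dBRD9-A minus DMSO, was −0.0054 for the 519 members, with a quartile range of −0.16 to 0.15, and −0.0027 for all regions. The median of the members on the centred scale was −0.50, −0.61 and −0.46 in DMSO replicates 1, 2 and 3 and −0.53, −0.63 and −0.45 in dBRD9-A replicates 1, 2 and 3. Both treatments thus had their lowest value in replicate 2 and their highest in replicate 3.

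At an adjusted p under 0.05, 0 members were called, with a background of 0% of all regions and a lowest adjusted p by limma of 0.99998 for members and for all regions. At an unadjusted p under 0.05, 11 members (2.12%) were found, 5 higher and 6 lower with dBRD9-A, beside 2.80% of all regions, 1.38% higher and 1.42% lower. With the replicate number as a block, 24 members (4.62%) had an unadjusted p under 0.05, beside 5.65% of all regions, and again 0 were called after adjustment (lowest adjusted p of a member 0.679). The 3 dBRD9-A values lay all above or all below the 3 DMSO values in 38 members, or 7.32%, where the background was 7.99%. All were above in 16 members, beside 3.88% of all regions, and all below in 22, beside 4.1%. The shares of members were thus near those of all regions. The 95% interval of a member's difference reached a median of 0.62 log2 units to either side without the block and 0.53 with it. Without the block it lay within 1 log2 unit of 0 for 424 members (81.7%). That was beside 84.9% of all regions fitted and 77.3% of all gained regions. For each of these members taken alone, this interval without the block keeps the fold enrichment within a 2-fold change. The intervals do not hold jointly for all of them. The fold carries a pseudocount of 1 and is not the summit pileup, so the pileup is not bounded in this way.

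**Figure D5:**
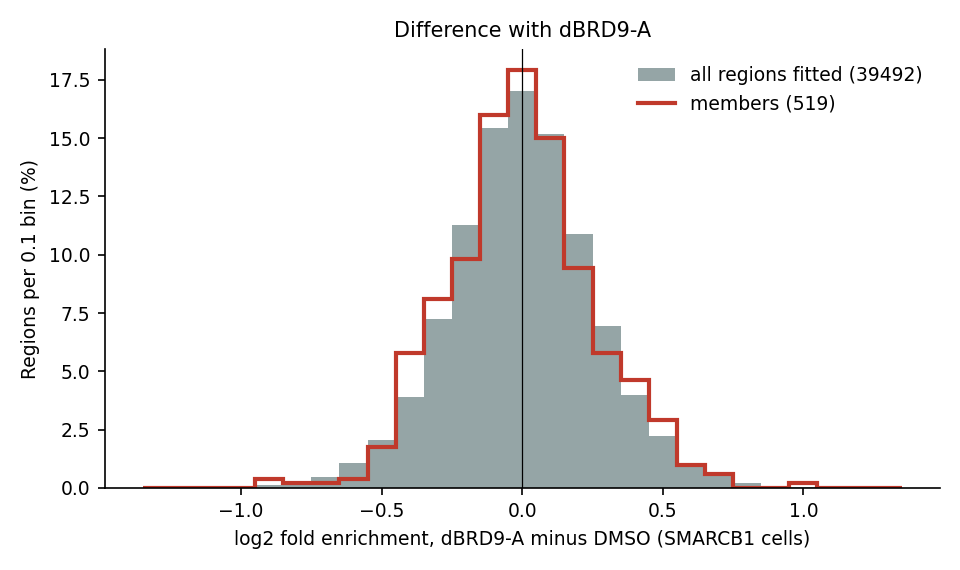
Distribution of the log2 difference in fold enrichment between dBRD9-A and DMSO libraries of SMARCB1 cells, as the percentage of regions per bin of 0.1, for the 519 members (red line) and all 39492 regions fitted (grey). Both distributions are centred near 0, with medians of −0.0054 and −0.0027.

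As no member passed the threshold, the 3 of smallest unadjusted p in each direction, in the fit without the block, are described. The order of members by p differed with the block. The member with the largest rise was at chromosome 2, positions 192477296 to 192477465, with folds of 3.71, 3.73 and 4.58 with DMSO and 6.39, 8.18 and 9.70 with dBRD9-A, so the groups did not overlap. Its summits held 3 to 10 fragments, and its log2 difference was 1.004 ± 0.32 (SE; limma unadjusted p 0.0053, adjusted p 0.99998). The member at chromosome 1, positions 208380843 to 208381262, had 11.7, 9.61 and 9.91 with DMSO and 15.8, 12.5 and 15.4 with dBRD9-A. That at chromosome 2, positions 189198560 to 189198776, had 4.62, 5.60 and 3.66 with DMSO and 9.43, 6.61 and 6.22 with dBRD9-A. Each of the 3 had all dBRD9-A values above all DMSO values.

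In the other direction, the member at chromosome 2, positions 120366169 to 120366441, had 5.42, 8.85 and 10.04 with DMSO and 4.87, 3.75 and 4.22 with dBRD9-A, a log2 difference of −0.88 ± 0.32 (SE; limma unadjusted p 0.013, adjusted p 0.99998). The member at chromosome 15, positions 68639909 to 68640219, was strong in every library, with 16.0, 19.0 and 18.5 with DMSO and 14.8, 9.93 and 14.2 with dBRD9-A. The member at chromosome 10, positions 79608916 to 79609133, had 9.82, 12.5 and 10.8 with DMSO and 11.3, 3.64 and 6.33 with dBRD9-A, so its groups overlapped. Its lowest value came from the shallowest SMARCB1 library.

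Most chains held members with differences of either sign. Of the 128 chains with 3 or more members, 11 had every member above 0, 12 had every member below 0 and 105 were mixed. Of all 519 members, 250 (48.2%) were above 0. Unrelated signs would thus also leave most short chains mixed and some with a single sign. The counts expected from unrelated signs were not computed, so the split is a description and was not tested. Chain means ran from −0.34 to 0.30 on the log2 scale. The correlation of the difference between neighbouring members was −0.070 over 331 pairs. It was 0.007 over 6438 pairs of consecutive unchained regions, which were not matched in spacing. In the chain of 6 on chromosome 10 the differences of the members ran from −0.18 to 0.29. In the chain of 5 at positions 123255308 to 123287470 on the same chromosome all 5 were above 0, from 0.05 to 0.41. Each of these had an SE of 0.25 to 0.32, and their shared sign was not tested.

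The libraries ranked the members alike to a moderate degree. The correlation of log2 fold across the 519 members was 0.501 to 0.688 for the 6 pairs of libraries of the same treatment and 0.491 to 0.788 for the 9 pairs of different treatment. The highest values were for libraries of the same replicate number and different treatment, 0.788 for replicate 3 and 0.756 for replicate 1, while it was 0.683 for replicate 2. The range for pairs of different treatment thus covered that for pairs of the same treatment. All pairs share the regions and the selection for a peak in all 6 lists.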

How the data were processed

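The data were 12 deposited peak lists, 1 per library, called by the authors from nucleosome-free fragments, per the labels. The submitters' processing notes name BWA 0.7.12-r1039, SAMtools 1.2, bedtools 2.24.0 and MACS2 2.1.1.20160309, with build hg19, and DiffBind and DESeq2, which were not used here. Their settings are not given in the sources used here. The deposited lists give the fold enrichment (a ratio of summit pileup to background), the −log10 of p and q, and an integer score by the authors' peak caller, which was not used. Lists are not scaled to each other.

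Merging, chains and distances were computed with pandas 2.3.3. The summit pileup was solved from fold and −log10 p with a pseudocount of 1, which gave whole fragments for at least 99.99% of the peaks of a list within 0.001. The background pileup is the 1st percentile of a list. Where a list had several peaks in a region, the strongest was used. The treatment contrast was fitted with limma 3.58.1 (R 4.3.3), and shares of regions were compared by exact permutation of libraries. The functions were tested on simulated data. Same-numbered SMARCB1 libraries deviated together: the correlation of their deviations from group means was 0.116, 0.267 and 0.372 for replicates 1, 2 and 3. For unlike numbers it ran from −0.280 to 0.0213. The number was therefore treated as pairing libraries in the blocked fit. In both treatments replicate 2 had the lowest background pileup (0.0720 and 0.0487) and replicate 3 the highest (0.0926 and 0.111). The part of depth in these correlations was not tested.

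Regions described singly were the 5 chains with the most members (ties by percentile), the 5 members of highest percentile, the 3 members of smallest p in each direction and those at the limits of the rule. The members and lists were chosen with earlier results of these data known. Genes, motifs and sequences were planned and not analysed, since no genome or annotation of hg19 was used here.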

Additional observations from a re-analysis of the deposited data

How the results depend on the processing

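Of 88 values under other settings for the main results, 70 were counted as unchanged, by a rule that differed between results. Numbers of members and chains had to stay within 1.5 times, and counts past the threshold at 0. The difference in further regions found had to keep its direction. The strength of members had to stay higher in every library and, except on the log2 scale, within 1.42 percentile points of the main value. With 1 library left out the first condition could not fail, since members were higher in 6 of 6. The median difference of members had to stay within 0.084, its SD between libraries, whatever its sign. The number of members depended on the lists and on the chain distance: 199 members in 71 chains with a −log10 q of at least 5, 39 in 15 with lists of equal length, 141 in 48 with presence by 50% cover, 57 in 19 with a chain distance of 5000 bp, 1475 in 535 with 25000 bp, and 130 in 46 with summit pileups thinned to the lowest background pileup, which stands in for depth. Of the 519 members, 124, 30, 71, 57, 519 and 115 overlapped a member there. The distance rule on whole chains left 117 chains. Leaving out 1 library gave 537 to 826 members in 193 to 299 chains. The rule then asks for fewer lists and is easier to meet, so a rise was largely built in. No setting called a region with dBRD9-A: the count was 0 for members and for all regions, with the replicate block too. Each replicate number has 1 library per treatment, so the block cannot change a difference, only its error. The member median of −0.0054 with the block was thus counted as unchanged by construction. Over all settings the median difference of members ran from −0.070 to 0.039. The difference in further regions found ran from −5.51 to 6.77 points when 1 library was left out. With the replicate block it was −0.303, again by construction (exact permutation p 1). The 4 settings that need a stricter presence of peaks all lowered the number of members, and weak regions are the least certain at this depth.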
